A study of Homo sapiens with 3 samples.

Results

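THSD4 and TTC28 are human genes of about the same, very great length, and both hold many MATR3 read clusters in their introns. Every cluster that the deposited tables name THSD4 or TTC28 was taken, which gave 389, 345 and 338 clusters in replicates 1, 2 and 3. Those 1072 clusters are part of 388807 clusters in all, and the genes are 2 of 13557 gene names in the tables. Both genes were picked because they carry many reads, so their levels and densities are described here without a test. THSD4 contributed 540 clusters and TTC28 contributed 532.

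The libraries are 3 biological replicates of PAR-CLIP made with an antibody against MATR3 from HEK293-WT cells with no treatment. HEK293 is an established line derived from human embryonic kidney, and all 3 libraries share this genotype, so there is 1 group, and it has no control library. The tables list bound RNA and not expression, so the cell line was not checked against markers. Reads in the listed clusters came to 1649124, 1506682 and 1532602 in replicates 1, 2 and 3, of which 549798, 629750 and 515954 were distinct. Every listed cluster had at least 4 reads and at least 2 converted positions, so weaker sites were not seen. Pairs of replicates had only 6 or 7 identical rows.

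MATR3 (matrin 3) is a nuclear RNA-binding protein that binds pyrimidine-rich intronic RNA and takes part in splicing control. In PAR-CLIP, cells take up a photoreactive uridine analogue, bound RNA is crosslinked to protein by UV light, and crosslinked uridines are read as T-to-C changes. Introns are cut out of a transcript while it is made or soon after, and intronic reads come from RNA that has not yet been spliced or degraded. THSD4 encodes a secreted protein of the ADAMTS-like family that binds fibrillin microfibrils of the extracellular matrix. TTC28 encodes a large cytoplasmic protein with tetratricopeptide repeats that is known to interact with Aurora B, a kinase of cell division.

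Recurrent sites are runs of overlapping clusters that hold at least 1 cluster of each of the 3 replicates. The clusters of a run can be joined by pairwise overlaps, so a site need not have a base covered by all 3 replicates. Sites 2 and 4 of each gene have such bases, and sites 1 and 3 have none. The 4 with the highest lowest-replicate read count are shown for each gene, to give the sequence at places seen in every replicate. Sequences are hg38, 5′ to 3′ on the transcribed strand, which is the plus strand for THSD4 and the minus strand for TTC28. Capitals mark bases covered by clusters of at least 2 of the 3 replicates. The THSD4 sites lie at chr15:71463324-71463469, chr15:71393278-71393398, chr15:71466937-71467236 (300 of the 329 bases of that place) and chr15:71517218-71517320.
THSD4 site 1: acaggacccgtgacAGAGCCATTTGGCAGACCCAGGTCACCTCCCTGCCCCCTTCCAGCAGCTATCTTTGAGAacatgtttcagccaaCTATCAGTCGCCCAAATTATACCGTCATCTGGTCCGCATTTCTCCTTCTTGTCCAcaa
THSD4 site 2: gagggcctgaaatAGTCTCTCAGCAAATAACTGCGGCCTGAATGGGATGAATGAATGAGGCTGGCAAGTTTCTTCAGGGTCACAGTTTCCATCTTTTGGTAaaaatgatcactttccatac
THSD4 site 3: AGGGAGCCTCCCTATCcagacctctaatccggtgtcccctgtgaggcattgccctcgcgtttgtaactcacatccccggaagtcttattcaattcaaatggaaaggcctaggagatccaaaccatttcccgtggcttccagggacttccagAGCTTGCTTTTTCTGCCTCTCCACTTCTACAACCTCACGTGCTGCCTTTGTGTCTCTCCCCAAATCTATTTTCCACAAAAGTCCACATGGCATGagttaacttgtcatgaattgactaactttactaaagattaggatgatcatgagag
THSD4 site 4: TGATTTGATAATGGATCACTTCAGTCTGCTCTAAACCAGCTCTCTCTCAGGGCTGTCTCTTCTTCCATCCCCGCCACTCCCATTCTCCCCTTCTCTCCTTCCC

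The TTC28 sites lie at chr22:28414512-28414752, chr22:28495186-28495295, chr22:28024902-28025054 and chr22:28439341-28439418.
TTC28 site 1: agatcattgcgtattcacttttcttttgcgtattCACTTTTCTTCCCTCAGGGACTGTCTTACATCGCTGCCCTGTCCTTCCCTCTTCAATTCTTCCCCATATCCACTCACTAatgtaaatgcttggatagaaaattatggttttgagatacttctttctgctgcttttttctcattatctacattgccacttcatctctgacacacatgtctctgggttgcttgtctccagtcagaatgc
TTC28 site 2: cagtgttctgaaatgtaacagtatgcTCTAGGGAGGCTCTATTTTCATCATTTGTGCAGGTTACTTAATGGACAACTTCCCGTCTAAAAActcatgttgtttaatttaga
TTC28 site 3: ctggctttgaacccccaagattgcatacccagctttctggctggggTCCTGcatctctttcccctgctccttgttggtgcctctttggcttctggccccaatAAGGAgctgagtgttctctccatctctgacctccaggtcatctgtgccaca
TTC28 site 4: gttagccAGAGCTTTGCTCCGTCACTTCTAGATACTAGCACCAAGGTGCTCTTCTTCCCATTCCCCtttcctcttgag

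All 8 sites are intronic. THSD4 site 4 was the most pyrimidine-rich of them, with 73.8% C and T, and THSD4 site 2 the least, with 47.9%. MATR3 is known to prefer AUCUU, and its DNA letters ATCTT were searched on the transcribed strand only. It occurs once each in THSD4 sites 1 and 2 and in none of the 4 TTC28 sites. A match in these letters is a description of the sequence and not evidence of a contact.

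THSD4 spans chr15:71096952-71783383 (686.432 kb) and TTC28 spans chr22:27978014-28679840 (701.827 kb) in GENCODE release 44. Read counts in THSD4 clusters were 2623, 2114 and 2354 in replicates 1, 2 and 3. Per 1000000 reads in gene-annotated clusters these were 1811, 1592 and 1732 normalised reads, with a mean of 1712 ± 111 (SD, n = 3). TTC28 had 2266, 1547 and 1734 reads, or 1565, 1165 and 1276 normalised reads, with a mean of 1335 ± 206 (SD, n = 3). THSD4 was the higher of the genes in each replicate, and replicate 1 was the highest for both. These values follow both the amount of each RNA and how much of it was bound, which cannot be told apart here.

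Density was almost the same in the 2 genes. THSD4 carried 0.267, 0.249 and 0.271 clusters per kb of gene, a mean of 0.262 ± 0.0116 (SD, n = 3). TTC28 carried 0.294, 0.248 and 0.217 clusters per kb, a mean of 0.253 ± 0.0387 (SD, n = 3). The replicate ranges overlapped. In normalised reads per kb the means were 2.49 ± 0.162 for THSD4 and 1.90 ± 0.294 for TTC28 (SD, n = 3).

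Density was high beside other genes of their length and less so beside genes as a whole. Since both genes were picked for their many reads, high ranks follow in part from that choice. Among 19962 protein-coding genes THSD4 ranked 5 and TTC28 ranked 6 by mean number of clusters, but 3477 and 3602 by clusters per kb. The annotation holds 322 protein-coding genes of at least 500 kb, of which 142 (44.1%) had a cluster in all 3 replicates. THSD4 and TTC28 were the densest and second densest of those 142. The other 140 had a median of 0.0109 clusters per kb and a range of 0.000671 to 0.175. Nearest to both were PARD3, a cell polarity scaffold, at 0.175 ± 0.0235, AGAP1, a regulator of membrane trafficking, at 0.167 ± 0.0398, and ADGRV1, an adhesion receptor, at 0.163 ± 0.0118 (SD, n = 3 each). Their spans are 705.766, 637.751 and 635.094 kb. Transcription was not measured here, so a low density over an annotated span can include stretches that these cells do not transcribe.

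**Figure D1:**
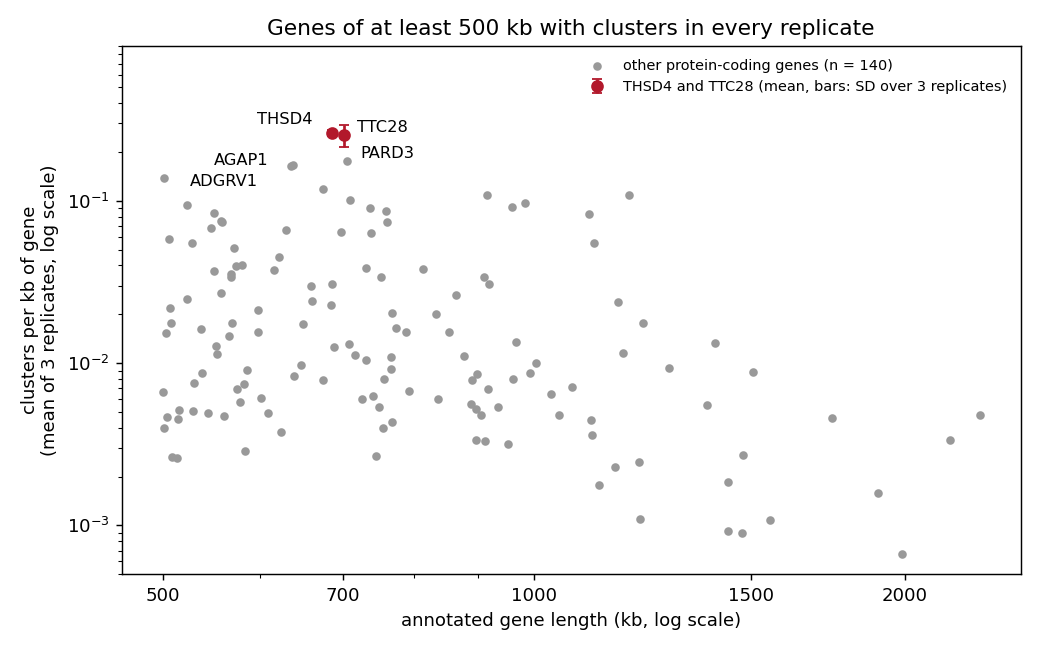
Clusters per kb (mean of 3 replicates, log scale) against annotated gene length in kb (log scale) for the 142 protein-coding genes of at least 500 kb with a cluster in every replicate. THSD4 (0.262) and TTC28 (0.253) are red, with bars for the SD over 3 replicates (for THSD4 smaller than the point), and lie above the other 140 genes (grey), the highest of which is PARD3 (0.175).

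Nearly all clusters were intronic in both genes. The authors' annotation called 180 of 183, 171 of 171 and 185 of 186 THSD4 clusters intronic in replicates 1, 2 and 3. For TTC28 it called 204 of 206, 172 of 174 and 152 of 152 intronic. The 8 others, 4 in each gene, lay in untranslated or coding sequence or across an exon border. Few intron clusters lay beside exons of the 1 transcript per gene that is used below to number introns. Only 1, 2 and 2 THSD4 intron clusters (0.556%, 1.17% and 1.08%) lay within 500 nt of an exon, a zone that holds 2.51% of the gene's intronic bases. For TTC28 the counts were 3, 2 and 0 (1.47%, 1.16% and 0%), against 3.10% of intronic bases. The share was under that of the bases in each replicate of both genes, on very few clusters. This zone is a smaller part of long introns than of short ones, and most clusters lay in the longest introns. The comparison therefore cannot show whether clusters avoided exons.

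Clusters covered little of either gene. In replicates 1, 2 and 3 they covered 1.47%, 1.32% and 1.33% of THSD4 and 1.31%, 1.09% and 0.917% of TTC28. The median distance between neighbouring clusters was 717, 667 and 752 nt in THSD4 and 1128, 1520 and 1433 nt in TTC28. All 3 THSD4 values were under all 3 TTC28 values, although density per kb was alike. THSD4 clusters were thus packed into a smaller part of the gene.

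That packing was the main difference between the genes. Bins of 25 kb were counted from the annotated 5′ end, and the longest run of bins above the gene's mean was taken as its dense stretch, a choice made after the values were seen. In THSD4 this stretch ran from 250 to 450 kb, 29.1% of the gene. It held 147 of 183, 136 of 171 and 160 of 186 clusters in replicates 1, 2 and 3, or 80.3%, 79.5% and 86.0%. Density was 0.738 ± 0.0601 clusters per kb inside it and 0.0665 ± 0.0113 outside, a ratio of 11.4 ± 3.06 (SD, n = 3). In TTC28 the stretch ran from 150 to 325 kb, 24.9% of the gene, and held 88, 71 and 67 clusters, or 42.7%, 40.8% and 44.1%. Density there was 0.430 ± 0.0637 inside and 0.194 ± 0.0314 outside, a ratio of 2.23 ± 0.149 (SD, n = 3). The bins had a like order in the replicates: Spearman's rho between pairs of replicates was 0.829 to 0.852 over the 28 THSD4 bins and 0.719 to 0.868 over the 29 TTC28 bins, as a description, since the bins share libraries and gene.

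**Figure D2:**
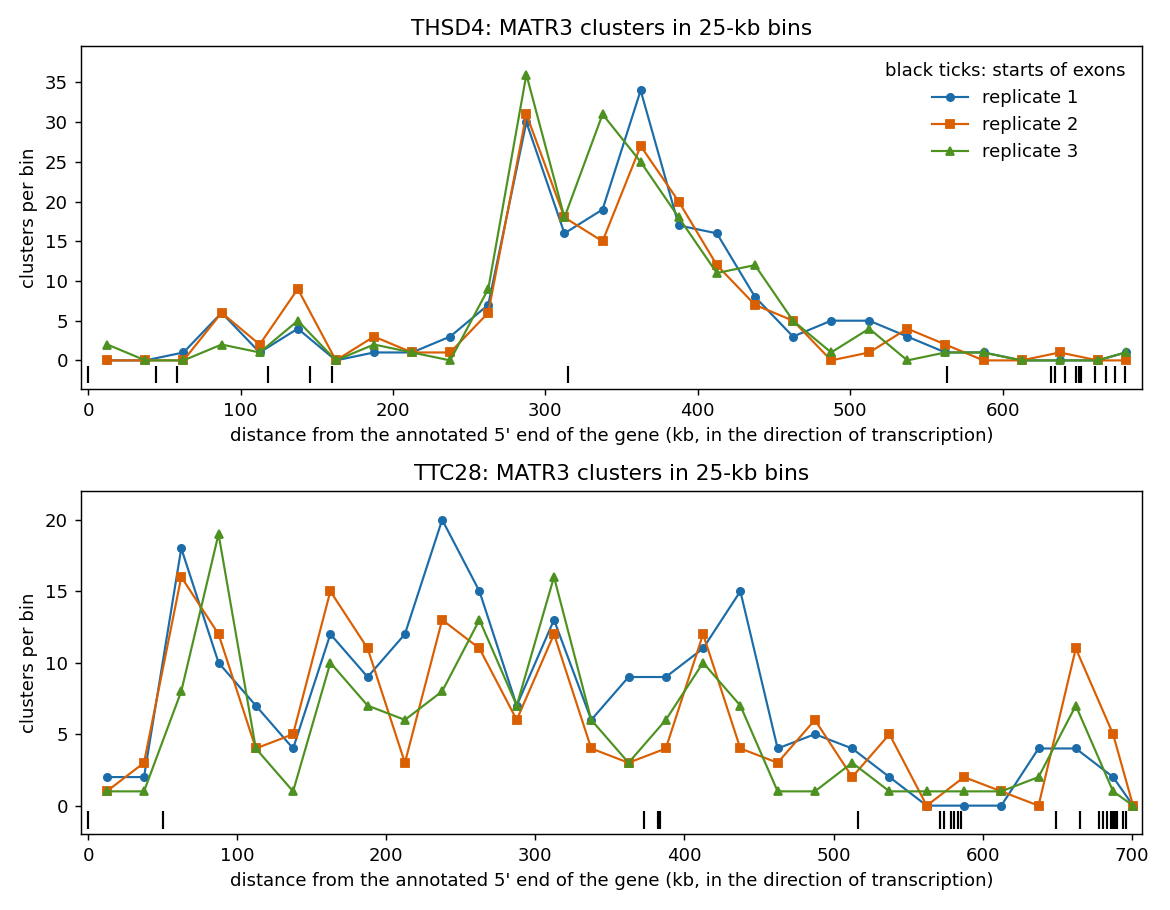
Clusters per 25-kb bin of THSD4 (top) and TTC28 (bottom) against distance from the annotated 5′ end in kb, with one line per replicate and black ticks at the starts of exons. The THSD4 bins from 250 to 450 kb held 80.3%, 79.5% and 86.0% of its clusters, whereas TTC28 clusters began in number at 50 kb and thinned out toward the 3′ end.

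A measure that needs no run of bins gave the same contrast. The single window of 25% of the gene length with most clusters held 77.6%, 76.0% and 81.7% of THSD4 clusters (mean 78.4% ± 2.94) and 45.1%, 42.0% and 44.1% of TTC28 clusters (mean 43.7% ± 1.62; SD, n = 3). Among the 25 genes of at least 500 kb with at least 100 clusters over all replicates, that share, taken on pooled clusters, was 78.0% for THSD4 and 43.4% for TTC28. The 23 other genes ranged from 37.6% to 100%, with a median of 62.9%. TTC28 was the second most evenly covered of the 25, at rank 24, and THSD4 ranked 6. The measure and the limit of 100 clusters were chosen after the values were seen.

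By intron, THSD4 clusters sat mainly in 2 of 17 introns. Numbers refer to a transcript with 18 exons for THSD4 and to one with 23 exons for TTC28. Intron 7 (chr15:71411824-71660529, 248.706 kb) held 116, 99 and 112 clusters, and intron 6 (chr15:71256716-71411686, 154.971 kb) held 53, 54 and 61. These longest introns together carried 91.7% of the gene's clusters on 59.6% of its intronic bases. Intron 7 had 0.466, 0.398 and 0.450 clusters per kb (mean 0.438 ± 0.0357) and intron 6 had 0.342, 0.348 and 0.394 (mean 0.361 ± 0.0281; SD, n = 3). The lowest value of intron 7 was above the highest of intron 6 by a margin smaller than either SD. Intron 8, the third longest at 67.814 kb, held 1, 0 and 2 clusters, or 0.0147 ± 0.0147 per kb (SD, n = 3). Of the 14 introns of at least 5 kb, 8 held no cluster in any replicate.

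From the 5′ end, THSD4 introns 1 to 5 (158.615 kb) held 11, 17 and 10 clusters. Introns 6 and 7 held 169, 153 and 173, and introns 8 to 17 (114.940 kb) held 1, 1 and 2. Density was 0.0799 ± 0.0239, 0.409 ± 0.0262 and 0.0116 ± 0.00502 clusters per kb in these blocks (SD, n = 3). The replicate ranges of the 3 blocks did not overlap. They were chosen after the values were seen.

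The rise of density in THSD4 lay inside intron 6 and not at an exon of the transcript used for intron numbers. Its first 107.629 kb held 6, 6 and 6 clusters, and its last 47.342 kb, from position 71364345, held 47, 48 and 55. Density was 0.0557 and 1.06 ± 0.0921 clusters per kb, a ratio of 18.9 ± 1.65 (SD, n = 3). The split is the start of the 5-kb window with most reads and was thus chosen on these data. T made up 29.5% of the first part and 31.8% of the second. The largest step between neighbouring 25-kb windows lay at position 71372626, also in intron 6. The window before it held 8, 5 and 9 clusters and the window after it 30, 33 and 38. T made up 31.4% and 30.1% of these windows, so its direction depended on where the gene was split. The split lies 267 kb from the annotated gene start. The nearest annotated THSD4 transcript start upstream is 249 kb away and the nearest downstream is 183 kb away. A transcript start of ENSG00000260586, an unnamed gene on the same strand, lies 22.021 kb upstream. Density fell again farther on, with 8, 7 and 12 clusters in the bin from 425 to 450 kb and 3, 5 and 5 in the next. An annotated THSD4 transcript start, at position 71547228, lies close to the border of these bins. A link between that start and the fall was not tested.

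TTC28 clusters became frequent at the start of intron 2. Intron 1 (49.791 kb) held 4, 4 and 2 clusters, or 0.0669 ± 0.0232 per kb (SD, n = 3). Intron 2 (chr22:28306644-28629551, 322.908 kb) held 142, 115 and 108, or 0.377 ± 0.0556 per kb (SD, n = 3), and with 68.6% of the gene's clusters it was the densest intron of at least 5 kb. The largest step between neighbouring 25-kb windows lay at its start: the 25 kb before position 28629514 held 2, 3 and 1 clusters and the 25 kb after it held 18, 16 and 8. T made up 33.3% and 37.2% of these windows. The step was located after the values were seen. Other annotated TTC28 transcript starts lie farther on. At position 28443073, in the dense stretch, the 25 kb before held 8, 5 and 4 clusters and the 25 kb after 17, 14 and 8. At position 28306645 the counts were 9, 3 and 3 before and 9, 4 and 6 after. At position 28094135 they were 0, 1 and 1 before and 0, 2 and 2 after. A link between these starts and density was not tested.

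Past intron 2 the density of TTC28 was lower, with a second group of clusters near the 3′ end. Intron 5 (132.598 kb) held 42, 28 and 24 clusters, or 0.236 ± 0.0713 per kb, and intron 12 (63.713 kb), the lowest of the introns of at least 5 kb, held 3, 2 and 4, or 0.0471 ± 0.0157 per kb (SD, n = 3). Intron 13 (15.833 kb) held 3, 6 and 5, or 0.295 ± 0.0965 per kb (SD, n = 3), the second highest mean among introns of at least 5 kb. Its replicate values, 0.189, 0.379 and 0.316, overlapped those of introns 2 and 5. T makes up 23.9% of intron 13, and C and T together 50.3%, against 51.7% C and T in intron 2 and 53.1% in intron 5. Intron 14 (12.694 kb) was close in density, at 0.289 ± 0.164 per kb (SD, n = 3). All 8 TTC28 introns of at least 5 kb held clusters. The 2 longest together carried 86.3% of clusters on 66.0% of intronic bases. Across introns, Spearman's rho of length with number of clusters was 0.859 over 22 TTC28 introns and 0.759 over 17 THSD4 introns, a description within 1 gene each.

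**Figure D3:**
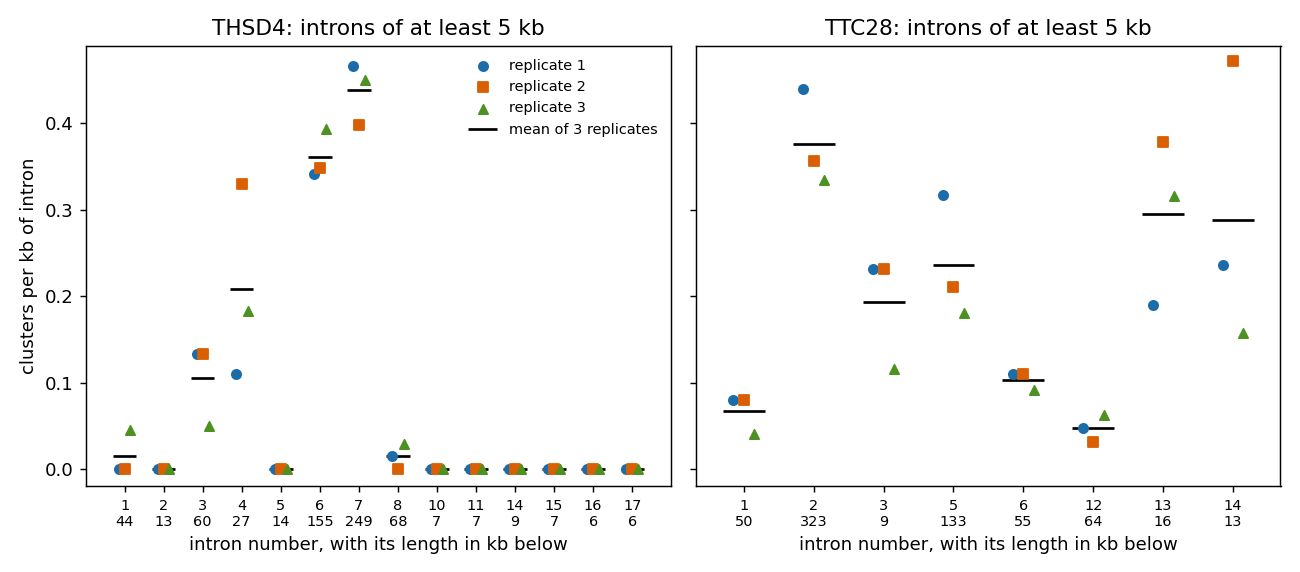
Clusters per kb of intron in each replicate (points) and their mean (bars) for introns of at least 5 kb in THSD4 (left, 14 introns) and TTC28 (right, 8 introns), with intron number and length in kb on the horizontal axis. THSD4 introns 6 (0.361) and 7 (0.438) stand above the others while 8 introns are at 0, and every TTC28 intron shown has clusters.

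Cluster-free stretches differed accordingly. The longest stretch without a cluster in any replicate was 52.159 kb in THSD4 (chr15:71678393-71730551) and 18.975 kb in TTC28 (chr22:28201906-28220880). Inside the dense stretches the longest was 6.883 kb in THSD4, with 27.9% T, and 13.933 kb in TTC28, with 25.3% T. Of the 28 bins of THSD4, 4 were empty, and the only empty bin of TTC28 was its last, which is shorter than 25 kb.

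Position along the gene was tested, since it did not choose the members. In THSD4, 45.0%, 50.9% and 53.0% of intron clusters lay in the 5′-most 50% of the gene, which holds 50.5% of intronic bases. The difference was -0.872 ± 4.13 percentage points (SD, n = 3; exact two-sided sign-flip permutation p = 1, adjusted p = 1). In TTC28 the shares were 67.2%, 68.0% and 70.4%, against 50.8% of intronic bases. That difference was 17.7 ± 1.68 percentage points (SD, n = 3), above 0 in 3 of 3 replicates (exact permutation p = 0.25, adjusted p = 0.5). With 3 replicates 0.25 is the smallest p that this test can give, so none of the 10 such tests could pass 0.05. A 5′ lean was common among very long genes: of the 25 with at least 100 clusters, the 23 others had a median of 81.4% of pooled clusters in the 5′-most 50%, against 67.9% for TTC28 (rank 20) and 49.4% for THSD4 (rank 23).

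Recurrence was measured as the share of clusters that shared at least 1 nt with a same-strand cluster of another replicate. In THSD4, 48 of 183, 52 of 171 and 48 of 186 clusters were found in at least 1 other replicate, or 26.2%, 30.4% and 25.8% (mean 27.5% ± 2.54; SD, n = 3). TTC28 had 37 of 206, 32 of 174 and 36 of 152, or 18.0%, 18.4% and 23.7% (mean 20.01% ± 3.19; SD, n = 3). Over intron clusters of all genes the share was 21.5%, which lay between the genes and inside the TTC28 range. After the clusters of 1 replicate were moved 1000 nt along the chromosome, 19.9% ± 1.74 of THSD4 and 9.45% ± 0.790 of TTC28 clusters still overlapped another replicate (SD, n = 3). So most of the THSD4 overlap was also present after moving, and less than 50% of the TTC28 overlap was. When both clusters had to share at least 50% of their length, the shares were 13.9% and 12.8%.

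Clusters found in both other replicates were few. THSD4 had 11, 10 and 11 (6.01%, 5.85% and 5.91%) and TTC28 had 5, 4 and 4 (2.43%, 2.30% and 2.63%), against 2.49% of intron clusters of all genes. The THSD4 values lay above that level and the TTC28 values around it. A high density of clusters raises this share, and the share found in both was not computed after moving. The comparison therefore cannot show whether recurrence in THSD4 exceeded what its density gives. Merged over replicates, THSD4 had 457 separate places, of which 392 were seen in 1 replicate, 52 in 2 and 13 in 3. TTC28 had 475, of which 427 were seen in 1 replicate, 41 in 2 and 7 in 3. Spread over many places, each seen in a single library, was the rule in both genes.

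The 13 recurrent THSD4 places were 8 in intron 7, 4 in intron 6 and 1 in intron 3, and 12 of them lay in the dense stretch. Read counts ran from 5 to 47 in a replicate. At 9 of them some bases were covered by all 3 replicates, over at most 50 nt. THSD4 site 1, printed above, had 17, 37 and 27 reads in replicates 1, 2 and 3. It lies 51.6 kb from the nearest exon of the transcript used for intron numbers. Site 2 had 18, 14 and 19 reads, with 38 nt covered by every replicate, and was the most even of the 4. Site 3 had 44, 20 and 14 reads. Site 4 had 29, 13 and 16 reads, with 50 nt covered by every replicate. Sites 1, 3 and 4 are in intron 7 and site 2 is in intron 6.

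The 7 recurrent TTC28 places were 5 in intron 2, 1 in intron 5 and 1 in intron 13, with 5 in the dense stretch. With at least 3 distinct reads there were 4 and with at least the median read count 3, where THSD4 had 9 and 8. Read counts ran from 5 to 51. Only 3 had bases covered by all 3 replicates, over at most 58 nt. TTC28 site 1, printed above, had 24, 21 and 51 reads. It lies 108 kb from the nearest exon of the transcript used for intron numbers, and exons of other transcripts were not counted. Site 2 had 21, 10 and 33 reads and the 58 nt shared by every replicate. Site 3, in intron 13, had 13, 9 and 10 reads, and site 4 had 6, 9 and 9. Replicate 3 was highest at sites 1 and 2. ATCTT occurred in 5 of the 13 THSD4 places and in 0 of the 7 TTC28 places, which is not a test, since the places were picked for their reads and differ in length. The mode positions that the tables give for the clusters spanned more than 10 nt over the 3 replicates at each of these 20 places.

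**Figure D4:**
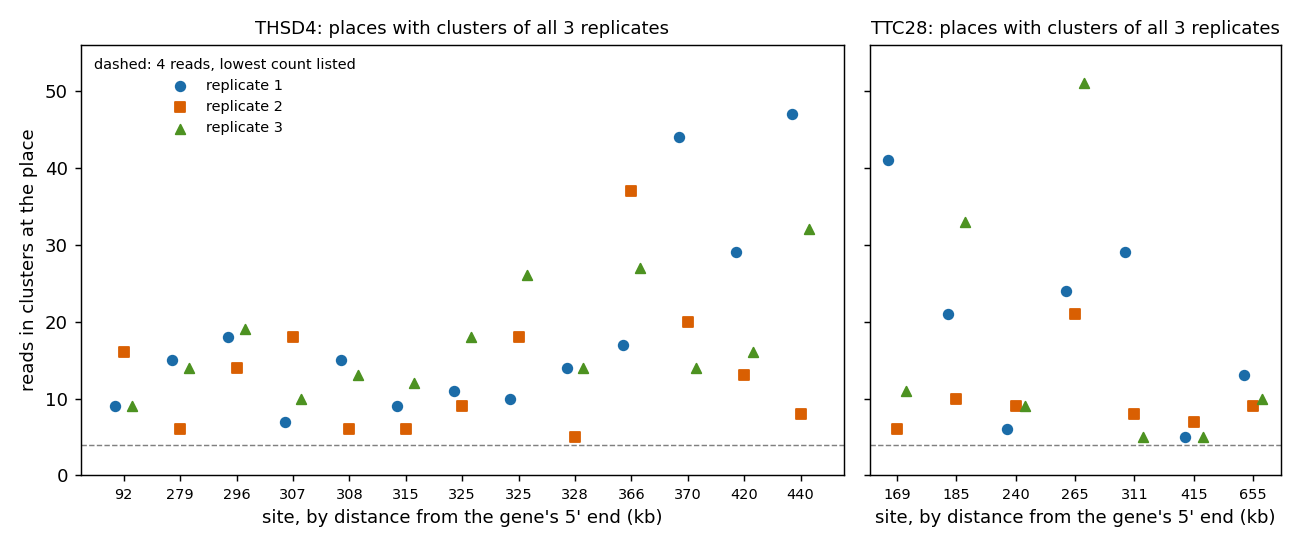
Reads in clusters of each replicate (colours) at the 13 places of THSD4 (left) and the 7 of TTC28 (right) where overlapping clusters of all 3 replicates form 1 run, ordered by distance from the 5′ end in kb, with a dashed line at 4 reads, the lowest count listed. Counts run from 5 to 47 in THSD4 and from 5 to 51 in TTC28, and the replicate with most reads differs from place to place.

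Reads were spread over many clusters. The strongest cluster held 7.24%, 3.03% and 3.31% of THSD4 reads in replicates 1, 2 and 3 and 2.16%, 1.68% and 2.94% of TTC28 reads. The largest was in intron 6 of THSD4, where replicate 1 had a cluster of 190 reads at chr15:71366474-71366861. It rested on 71 distinct reads and 46 converted positions, and 77.9% of its reads had T-to-C. Replicate 3 had its strongest THSD4 cluster at the same place, with 78 reads at chr15:71366794-71367014. Replicate 2 had no listed read in either interval. Its own strongest cluster, of 64 reads, lay in intron 7 at chr15:71425896-71426003. The bases shared by these clusters of replicates 1 and 3, chr15:71366794-71366861, are shown because each cluster was the strongest of its replicate. All of them are covered by both replicates, but they are printed here without capitals. The mode position of the replicate 3 cluster, 71366824, lies in them. That of the replicate 1 cluster, 71366760, lies outside them.
THSD4 leading cluster: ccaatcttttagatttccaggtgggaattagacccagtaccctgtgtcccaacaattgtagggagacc

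ATCTT occurs once in these 68 bases. The 5-kb window with most reads holds them and ran over chr15:71364345-71367793, with 5, 4 and 6 clusters and 288, 50 and 260 reads. That was 11.0%, 2.37% and 11.0% of THSD4 reads, so the number of clusters was alike in the replicates and the number of reads was not. In TTC28 the corresponding window, chr22:28584316-28586699 in intron 2, had 5, 5 and 5 clusters with 74, 40 and 140 reads, or 3.27%, 2.59% and 8.07% of reads. The strongest TTC28 clusters had 49 reads in intron 2 (replicate 1), 26 in intron 3 (replicate 2) and 51 in intron 2 (replicate 3). Only the last of these places was a recurrent site of all replicates, TTC28 site 1.

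Most clusters were small. The median cluster had 10, 9 and 9 reads in THSD4 and 9, 8 and 9 in TTC28. Clusters of at least 20 reads numbered 31, 25 and 27 in THSD4 and 22, 8 and 14 in TTC28. Clusters that rested on at most 2 distinct reads made up 30.6%, 28.1% and 33.3% in THSD4 and 39.8%, 29.9% and 36.2% in TTC28. Counting only clusters with at least 3 distinct reads lowered density to 0.182 per kb in THSD4 and 0.163 in TTC28.

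Crosslinking was read as conversion per T, the number of T-to-C events over all T positions read. THSD4 had 10.03%, 10.5% and 10.9%, against 10.5%, 11.1% and 11.2% in all other intron clusters of the same replicate. The difference was -0.458 ± 0.189 percentage points (SD, n = 3; below 0 in 3 of 3 replicates; exact sign-flip permutation p = 0.25, adjusted p = 0.5). TTC28 had 9.32%, 10.3% and 10.2%, a difference of -0.975 ± 0.196 (SD, n = 3; below 0 in 3 of 3; exact permutation p = 0.25, adjusted p = 0.5). Both differences were larger than their spread. With at least 3 distinct reads they were -0.194 and -0.982, and with at least the median read count -0.238 and -0.998, so the THSD4 difference was smaller among clusters with more reads. Reads with T-to-C made up 84.5%, 84.8% and 88.6% of THSD4 reads and 90.9%, 90.2% and 87.8% of TTC28 reads.

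Cluster sequence differed from the introns it came from. THSD4 clusters were 25.5% ± 0.248 C and 23.0% ± 0.339 A (SD, n = 3), where its introns are 20.9% C and 27.6% A. TTC28 clusters were 24.2% ± 0.618 C and 22.2% ± 0.177 A (SD, n = 3), where its introns are 19.3% C and 27.7% A. T was 31.6% ± 0.716 against 30.1% in THSD4 and 35.3% ± 1.86 against 32.6% in TTC28 (SD, n = 3). C was higher and A lower than the introns' own level by many times the SD in both genes, while T differed less. These differences were not among the tests. A listed cluster must hold at least 2 converted T, which bears on its T content.

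Against other intron clusters the sequence was close. C and T together made up 57.2% ± 0.871 of THSD4 cluster bases, a difference of -0.294 ± 0.520 percentage points (SD, n = 3; exact permutation p = 0.5, adjusted p = 0.556). In TTC28 they made up 60.2%, 57.8% and 60.5%, a difference of 2.06 ± 0.615 (SD, n = 3; above 0 in 3 of 3 replicates; exact permutation p = 0.25, adjusted p = 0.5). ATCTT occurred 1.90, 2.75 and 3.62 times per kb of THSD4 cluster sequence and 3.73, 2.37 and 2.80 times per kb of TTC28 cluster sequence. Other intron clusters had 2.18 ± 0.149 per kb (SD, n = 3). The differences were 0.575 ± 0.857 and 0.784 ± 0.606 per kb (SD, n = 3; exact permutation p = 0.5 and 0.25, adjusted p = 0.556 and 0.5), of which the first was smaller than its SD. In the introns as a whole ATCTT occurs 1.46 times per kb in THSD4 and 1.69 in TTC28. Median cluster length was 40, 40 and 39 nt in THSD4 and 39, 39 and 36 nt in TTC28, within 2 nt of that of other intron clusters in each replicate. The mean differences of the medians were 1 ± 1 and -0.667 ± 0.577 nt (SD, n = 3; exact permutation p = 0.5 for both). They were larger among clusters with more reads, at 6.83 and -2.67 nt with at least 3 distinct reads and 7 and -4.83 nt with at least the median read count, and mean length differed by 4.87 and -4.05 nt. In each of these THSD4 clusters were longer and TTC28 clusters shorter (exact permutation p = 0.25, the smallest possible).

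Signal was almost confined to the transcribed strand. On the opposite strand of the THSD4 span there was 1 cluster of 8 reads in replicate 1 and 1 cluster of 19 reads in replicate 3, the latter annotated to THSD4-AS1. This latter cluster also lies within HMGB1P6 (chr15:71164770-71165415), a processed pseudogene on that strand. The source of its reads was not tested. Replicate 2 had none on the opposite strand of THSD4, and the opposite strand of the TTC28 span had none in any replicate.

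Genes that work with these proteins were counted for context. Of 22 genes for fibrillin microfibrils and ADAMTS-like proteins, 5 (22.7%) were listed in every replicate, 4 in 2 of them, 3 in 1 and 10 in none. Over all protein-coding genes 40.8% were listed in every replicate. The 5 were ADAMTS17 at 98.2 ± 22.6 normalised reads, FBN2 (a fibrillin) at 76.7 ± 3.86, ADAMTSL1 at 57.7 ± 32.3, LTBP4 at 39.2 ± 6.86 and PAPLN at 37.7 ± 33.7 (SD, n = 3 each). Of 15 genes for Aurora B, the central spindle and the midbody, 14 (93.3%) were listed in every replicate and KIF20A in 2. Among them were the kinase AURKB at 57.3 ± 12.9 normalised reads, its partners INCENP at 129 ± 15.5, BIRC5 at 28.4 ± 11.5 and CDCA8 at 114 ± 43.0, and the spindle motor KIF4A at 363 ± 18.5 (SD, n = 3 each). CIT, a midbody kinase, had 241 ± 13.4, and the others, KIF23, RACGAP1, PRC1, ECT2, PLK1, ANLN, CEP55 and RHOA, also had clusters in each replicate. The median annotated length is 42.7 kb in the first list and 32.5 kb in the second, against 27.5 kb over all protein-coding genes. Levels of expression, on which a cluster depends, were not measured.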

How the data were processed

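MATR3 PAR-CLIP was measured in 3 biological replicates. The authors deposited 1 table of clusters per replicate, called separately. Per the file headers, reads, distinct reads, converted positions and conversion and non-conversion events are raw counts per cluster, and the T-to-C column is a fraction of the reads from 0 to 1. The build is hg38 per the submitters' processing notes; all 1072 sequences equalled it, with 0 mismatches. Aligner, caller and annotation release are not given in the sources used here. Counts carry no molecular identifiers and cover clusters only.

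From these were computed clusters and normalised reads per kb of the GENCODE release 44 span, overlaps of at least 1 nt, shares after moving clusters by 1000 nt in either direction, and counts by intron and 25-kb bin (Python 3.11.15, numpy 2.4.6, pandas 2.3.3, tested on simulated data). Of 13557 names, 12143 (89.6%) matched GENCODE; the others do not enter ranks. Exact two-sided sign-flip permutation tests over replicates formed 1 family of 10 with Benjamini-Hochberg adjustment. The sign-flip p is 0.25 whenever all 3 differences share a sign, whatever their size or spread. It speaks only of these samples.

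The members and lists were chosen with earlier results of these data known. Named were the nearest and densest genes of at least 500 kb, listed genes with a cluster in all replicates, the longest, densest and sparsest introns, the 4 best recurrent sites and each replicate's strongest cluster. Bins, steps, intron blocks, exon distance and the base comparison with the genes' own introns were chosen after values were seen. Alternatives were filters on distinct reads and reads, each replicate left out, overlap, moving distance, span and summary measure.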

Additional observations from a re-analysis of the deposited data

Results flagged for a closer look

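Reads on the opposite strand of the THSD4 span lie outside the counts above and were set apart for having any signal where the gene's own RNA gives none. Replicate 1 had 8 reads in 1 cluster at chr15:71360919-71360949, which carries no gene name. Replicate 3 had 19 reads in 1 cluster at chr15:71165106-71165140, named THSD4-AS1. That cluster also lies inside HMGB1P6, a processed pseudogene on the same strand as THSD4-AS1. Each place was seen in a single replicate.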

How the results depend on the processing

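Of 102 values recomputed under an alternative, 73 were counted as unchanged, 28 moved and 1 changed sign. Unchanged meant within the replicate spread, on the same side or, for counts of recurrent places, within a set factor. A fall from 13 to 9 recurrent THSD4 places thus counted as unchanged. It occurred with at least 3 distinct reads and with a base covered by all 3 replicates. Clusters with at least 3 distinct reads gave 0.182 and 0.163 clusters per kb in THSD4 and TTC28, 30.2% of THSD4 clusters found again, 6.56% of TTC28 clusters found after moving, and 4 recurrent TTC28 places. Clusters with at least the median read count gave 0.162 and 0.137 per kb, 30.7% of THSD4 clusters found again, 5.81% of TTC28 clusters found after moving, and 8 and 3 recurrent places. Overlap of at least 50% left 13.9% and 12.8% found again. Moving by 5000 nt left 13.9% and 5.51%. Asking for a base covered by all 3 replicates left 3 recurrent TTC28 places. Leaving out each replicate gave 14.6% to 18.7% and 9.54% to 13.1% found again, and 8.56% to 12.6% and 2.77% to 6.36% after moving, lower by construction with 1 other replicate in place of 2. The THSD4 difference in the 5′-most 50% ran from -2.55 to 1.44 percentage points and was above 0 without replicate 1. Recurrent places need all 3 replicates and have no such value. No paired analysis was possible because there is only 1 group. Repeat content was not run, since the reference sequence used does not mark repeats. No listed cluster has under 4 reads in any library.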

Other observations

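The only recurrent THSD4 place outside introns 6 and 7 lay in intron 3, whose clusters were grouped. Of the 19 clusters of that intron, 14 (6, 6 and 2 in replicates 1, 2 and 3) fell within 5 kb of chr15:71188867. The recurrent place there lies within the span of THSD4-AS1 (chr15:71147650-71189064), a gene on the opposite strand. THSD4-AS1 begins at position 71189064 and runs the other way, so the place lies opposite its first part, 86 nt from that start. The reads are on the THSD4 strand. This group was picked out after its values were seen.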
